A study of Mus musculus with 4 samples.

Results

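Microglia and macrophage genes were followed through RNA sequencing of sorted embryonic mouse cortical cells. The set held 39 genes chosen by symbol, of which 38 were in the table of 48395 genes. Irf8, a myeloid transcription factor gene, is not analysed here. Cells came from the forebrain cortex of ICR mice, electroporated in utero at E14.5 and collected 48 hours later, at E16.5. The Zeb1 group (2 libraries) received the plasmid CAG-Zeb1-IRES-ZsGreen, and the control group (2 libraries) received CAG-IRES-ZsGreen. Both plasmids use the broadly active CAG promoter, and in both groups papain-dissociated cells were sorted for the green fluorescent protein ZsGreen. The labels do not say whether a library pools several embryos or whether the replicates are independent litters. The p-values therefore cover the spread among these libraries, which may be technical.

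Microglia are the resident macrophages of the brain. They arise from myeloid progenitors of the yolk sac, enter the embryonic brain early, depend on signalling through the receptor CSF1R and the transcription factor PU.1, clear dying cells and carry complement, purinergic and Fc receptors. ZEB1, the factor on the plasmid, is a zinc-finger factor that represses epithelial genes during epithelial-to-mesenchymal transition. Values below are FPKM, fragments scaled to gene length and library size, so levels of different genes can be compared per length, while the absolute depth is unknown.

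The 38 genes shared the ends of their library order. Zeb1 replicate 1 was the highest and control replicate 2 the lowest library for every one of the 38, an order held by 15.8% of the 14330 genes tested. Zeb1 replicate 2 and control replicate 1 lay between them. The ratio of Zeb1 replicate 2 to control replicate 1 had a median of 0.952 and ran from 0.351 for Ccl3 to 1.57 for Axl. For 23 genes control replicate 1 was above Zeb1 replicate 2, so the groups overlapped. For the other 15 both Zeb1 libraries were above both controls, against 18.2% of all genes tested. The geometric mean over the 34 genes other than Sall1, Apoe, Axl and Mertk, which neural progenitors or astrocytes are also known to express, was 35.6 FPKM in Zeb1 replicate 1 and 18.6 FPKM in Zeb1 replicate 2. It was 20.9 FPKM in control replicate 1 and 5.51 FPKM in control replicate 2. The 2 controls thus differed 3.79-fold and the 2 Zeb1 libraries 1.92-fold, while Zeb1 replicate 2 stood at 0.89 of control replicate 1. In such bulk libraries, fewer cells of a type and less RNA per cell cannot be told apart.

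**Figure D1:**
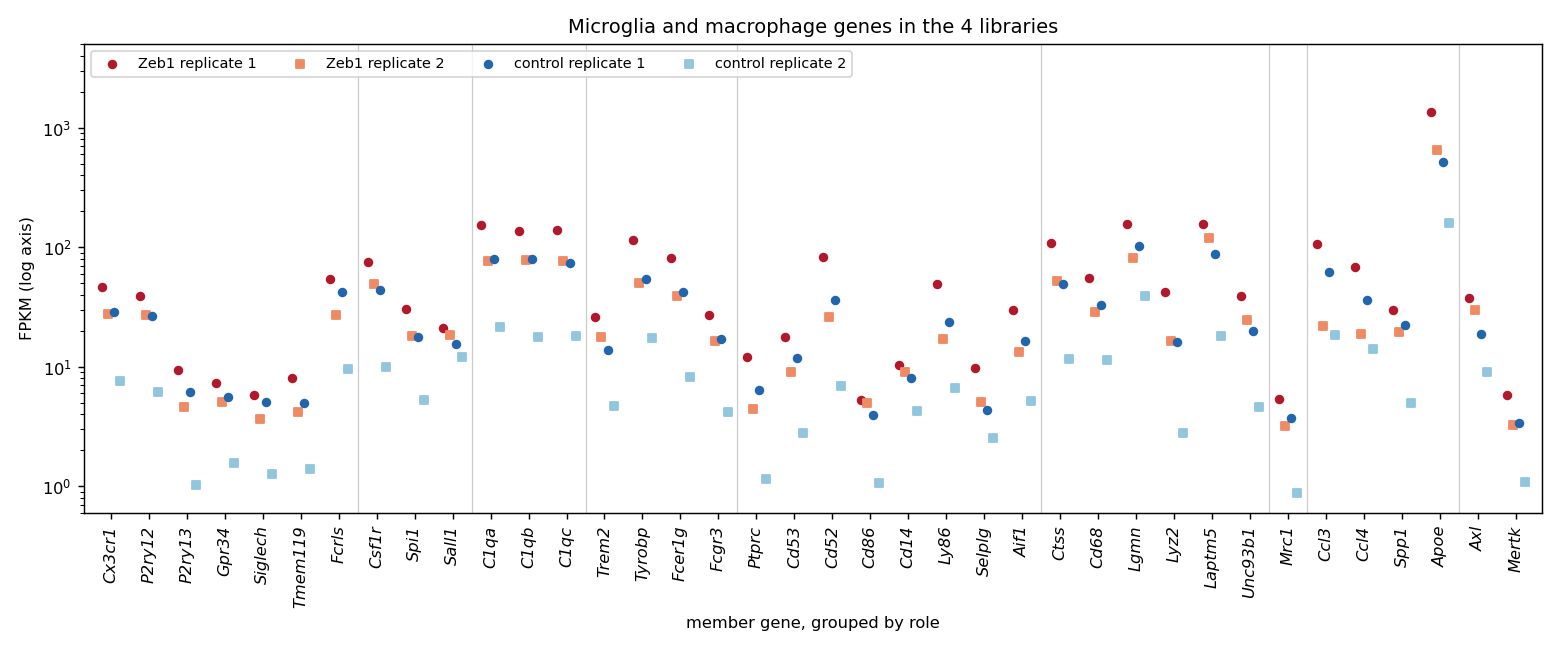
FPKM (log axis) of the 38 microglia and macrophage genes in each of the 4 libraries, grouped by role, with 1 point per library. Zeb1 replicate 1 is the highest and control replicate 2 the lowest point for every gene, and Zeb1 replicate 2 and control replicate 1 lie between them.

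No gene of the set passed the test between groups. In limma, which fits every gene of the table and moderates each gene's spread, 0 of 38 were called at a Benjamini-Hochberg adjusted p under 0.05, against 0.0837% of all genes called higher and 0.112% called lower in Zeb1 cells. At an unadjusted p under 0.05, Axl alone of the 38 was higher and 0 were lower, where 3.23% of all genes were higher and 3.68% lower. Adjusted p-values ran from 0.665 for Axl to 0.929 for Ccl3. All 38 log2 fold changes on the log2(FPKM + 1) scale were positive, from 0.49 for Sall1 to 1.77 for Lyz2, with a median of 1.12. Over all genes tested, 50.1% were positive and the median was 0.00.

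The size of that median depended on single libraries. Without control replicate 2 it was 0.30, and 4 genes (Siglech, Fcrls, Ccl3 and Ccl4) had negative values. Without Zeb1 replicate 1 it was 0.66, and Ccl3 and Ccl4 were negative. It was 1.55 without Zeb1 replicate 2 and 1.97 without control replicate 1.

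**Figure D2:**
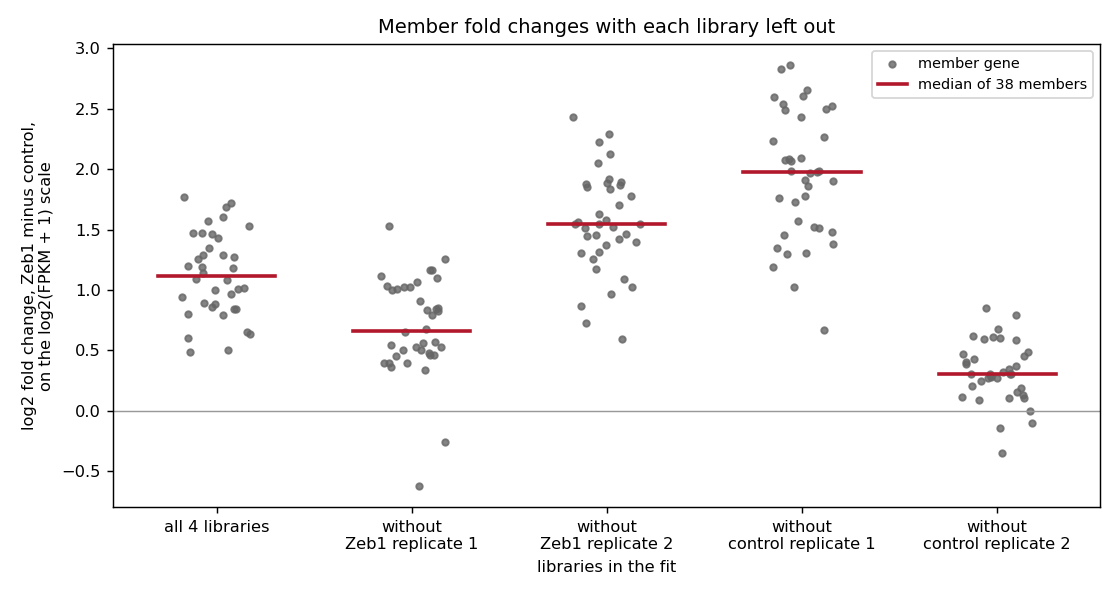
Log2 fold change, Zeb1 minus control, of the 38 genes (grey points) on the log2(FPKM + 1) scale with all 4 libraries and with each library left out. The red median is 1.12 with all libraries, 0.66 and 1.55 without Zeb1 replicates 1 and 2, and 1.97 and 0.30 without control replicates 1 and 2.

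The surface signature of microglia comprised 7 genes. Cx3cr1, the receptor for the neuronal chemokine fractalkine, had 46.2 and 27.5 FPKM in Zeb1 replicates 1 and 2, and 28.7 and 7.59 FPKM in control replicates 1 and 2. P2ry12, the ADP receptor that steers microglial processes, had 39.2 and 27.1 FPKM in the Zeb1 libraries, against 26.7 and 6.14 FPKM in the controls. Fcrls, an Fc receptor-like scavenger molecule, had 54.4 and 27.2 FPKM in the Zeb1 libraries, against 42.5 and 9.59 FPKM in the controls. In these 3 genes the second control was several-fold under the other libraries, and the groups overlapped for Cx3cr1 and Fcrls. The neighbouring purinergic receptor gene P2ry13 had 9.38 and 4.65 FPKM in Zeb1 cells and 6.12 and 1.04 FPKM in control cells, a ratio between controls of 5.90, the highest in the set. Gpr34, a lysophospholipid receptor gene, had 7.39 and 5.10 FPKM in Zeb1 cells and 5.65 and 1.57 FPKM in control cells. Tmem119, a membrane protein gene used to mark microglia, had 8.025 and 4.22 FPKM in Zeb1 cells and 4.95 and 1.40 FPKM in control cells. These low-level genes overlapped between groups, as did the lectin receptor gene Siglech, with 5.78 and 3.69 FPKM in Zeb1 cells and 5.05 and 1.28 FPKM in control cells. Log2 fold changes in this group ran from 0.60 for Siglech to 1.26 for P2ry12. P2ry12 and Cx3cr1 share 0.353% and 1.73% of their exonic bases with genes on the opposite strand, Med12l and Gm33858.

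Csf1r, the receptor on which microglial survival depends, had 75.5 and 48.9 FPKM in the Zeb1 libraries and 44.2 and 9.97 FPKM in the controls. Its log2 fold change was 1.47 (standard error, SE, 0.77; limma adjusted p = 0.764), and its 95% interval ran from -0.67 to 3.61. The Zeb1 libraries lay above both controls, but Zeb1 replicate 2 was within 1.11-fold of control replicate 1. Of the exonic bases of Csf1r, 15.1% overlap Hmgxb3 on the opposite strand, and whether the counting used strand is not given in the sources used here. Spi1, which encodes PU.1, had 30.6 and 18.2 FPKM in Zeb1 cells and 17.8 and 5.23 FPKM in control cells. Sall1, a zinc-finger factor that maintains microglial identity and is also known from neural progenitors, varied least of the 38. It had 21.2 and 18.4 FPKM in Zeb1 cells and 15.6 and 12.03 FPKM in control cells, a 1.76-fold range over the 4 libraries, where the median range over the set was 6.06-fold. Its log2 fold change was 0.49 (SE 0.19; limma adjusted p = 0.737).

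The 3 genes of C1q, the initiating complex of the classical complement pathway, were among the most abundant. They lie side by side on the minus strand of chromosome 4 in GRCm38, C1qb at 136880129 to 136886187, C1qc at 136889804 to 136893065 and C1qa at 136895917 to 136898803. C1qa had 153.5 and 76.1 FPKM in Zeb1 cells, against 80.3 and 21.7 FPKM in control cells. C1qb had 137 and 77.6 FPKM in Zeb1 cells, against 79.3 and 17.6 FPKM in control cells. C1qc had 139 and 76.1 FPKM in Zeb1 cells, against 73.2 and 18.3 FPKM in control cells. The chains kept nearly fixed proportions while their levels moved several-fold: C1qb stood at 0.891 and 1.02 of C1qa in the Zeb1 libraries and at 0.988 and 0.812 in the controls, and C1qc at 0.9055 and 0.9999 in the Zeb1 libraries and 0.912 and 0.8425 in the controls. Log2 fold changes of the 3 genes were between 1.35 and 1.46, and the widest of their 95% intervals, that of C1qb, ran from -0.83 to 3.69.

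The promoters of the set are shown for a motif of the myeloid factor PU.1. Any part of PU.1 in the differences between libraries was not tested. Windows of 250 bases before the annotated start were taken from RefSeq (GRCm38.p6), which held 34 windows for 26 of the 38 genes. Distances below are counted to these RefSeq starts, which can differ from the ends of the loci that carry the FPKM values. The letters GAGGAA or their reverse complement TTCCTC, a core of PU.1 sites, occurred in 19 of these 34 windows (55.9%) and in 23.3% of 32851 windows of all genes. Mean GC content was 50.8% in the windows of the set and 53.2% in all windows. An ETS-IRF composite, GGAA and then GAAA with any pair of bases between, on either strand, occurred in 0 of 34 windows and in 2.3% of all, and CACCTG on either strand, an E-box that ZEB1 is known to bind, in 4 of 34 (11.8%) and in 17.2% of all. A match is a run of letters, not evidence of binding. Both windows of C1q genes in the table are given whole, 5′ to 3′ on the gene's strand, with the PU.1 core in capitals.
C1qb, chr4:136886201-136886450, minus strand: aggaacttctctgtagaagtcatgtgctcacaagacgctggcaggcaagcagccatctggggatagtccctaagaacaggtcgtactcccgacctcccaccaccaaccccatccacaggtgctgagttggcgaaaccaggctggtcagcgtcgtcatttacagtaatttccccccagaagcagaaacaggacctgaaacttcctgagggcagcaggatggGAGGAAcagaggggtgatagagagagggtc
C1qc, chr4:136892915-136893164, minus strand: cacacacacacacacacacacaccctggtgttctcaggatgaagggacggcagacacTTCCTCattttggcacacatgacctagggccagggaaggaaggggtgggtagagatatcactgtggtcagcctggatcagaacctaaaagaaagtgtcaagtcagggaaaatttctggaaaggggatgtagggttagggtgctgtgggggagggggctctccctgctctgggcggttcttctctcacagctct
The core lay 30 bases before the RefSeq start of C1qb and 193 bases before that of C1qc, counted from its first base. The window of C1qc spans the 5′ end of the C1qc locus, at 136893065, and its core lies outside the locus. C1qb also held the E-box letters, 135 bases before the start.

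In 9 genes the core began within the last 50 bases before the start, in 10 of the 34 windows (29.4%) against 5.18% of all windows, a distance chosen after the positions were seen. The 2 windows of Fcgr3 overlap and hold the same core, so that site is counted in both. The last 60 bases of the windows with such a core, other than that of C1qb, are printed, 1 window per gene. They show where the capitals fall relative to the start at the right end.
Aif1, chr17:35176053-35176112, minus strand: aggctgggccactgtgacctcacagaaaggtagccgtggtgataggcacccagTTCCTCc
Ccl3, chr11:83649379-83649438, minus strand: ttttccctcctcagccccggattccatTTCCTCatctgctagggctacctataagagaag
Cd53, chr3:106790150-106790209, minus strand: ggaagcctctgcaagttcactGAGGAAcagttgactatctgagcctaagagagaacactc
Fcgr3, chr1:171059395-171059454, minus strand: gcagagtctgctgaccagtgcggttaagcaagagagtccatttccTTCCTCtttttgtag
Laptm5, chr4:130913256-130913315, plus strand: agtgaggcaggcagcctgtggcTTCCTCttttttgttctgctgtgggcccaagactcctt
Mrc1, chr2:14229354-14229413, plus strand: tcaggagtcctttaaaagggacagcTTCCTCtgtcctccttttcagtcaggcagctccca
P2ry13, chr3:59210883-59210942, minus strand: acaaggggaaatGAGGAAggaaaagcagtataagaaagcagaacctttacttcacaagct
Trem2, chr17:48346341-48346400, plus strand: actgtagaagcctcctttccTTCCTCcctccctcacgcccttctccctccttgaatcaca
The runs stood in both orientations, GAGGAA in Cd53 and P2ry13 and TTCCTC in the other 6. Not all of these stretches lie before the locus that carries the FPKM values. Those of Laptm5 and Fcgr3 lie inside it, at 130913125 to 130936141 and at 171051174 to 171064935. Those of Aif1 and Mrc1 lie partly inside, with the core of Aif1 inside and that of Mrc1 outside. The 8 genes cover surface, lysosomal, secreted and signalling roles.

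Immunoreceptors and their adaptors followed. Tyrobp, the adaptor DAP12, had 115.6 and 49.95 FPKM in Zeb1 cells and 54.6 and 17.35 FPKM in control cells. Fcer1g, the common Fc receptor gamma chain, had 81.6 and 39.1 FPKM in Zeb1 cells and 42.4 and 8.165 FPKM in control cells. Trem2, the lipid-sensing receptor that signals through DAP12, had 26.0 and 17.8 FPKM in Zeb1 cells and 13.9 and 4.71 FPKM in control cells. Of these, Trem2 had both Zeb1 libraries above both controls, with a log2 fold change of 1.29 and a standard error of 0.54 (limma adjusted p = 0.749). Fcgr3, a low-affinity IgG receptor gene, had 26.9 and 16.6 FPKM in Zeb1 cells and 17.1 and 4.23 FPKM in control cells. It shares 9.58% of its transcript 50-mers with Fcgr2b, so the split of reads between these genes is uncertain.

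Among 8 leukocyte surface and cytoskeletal genes, the spread between libraries was widest for Cd52 and Ptprc. Cd52, a small glycosylated surface antigen gene, had 82.8 and 26.0 FPKM in Zeb1 cells and 36.4 and 6.87 FPKM in control cells, and 172 of its 1187 exonic bases overlap Crybg2 on the opposite strand. Ptprc, which encodes the pan-leukocyte phosphatase CD45, had 12.03 and 4.47 FPKM in Zeb1 cells and 6.42 and 1.15 FPKM in control cells. Both genes overlapped between groups, with ranges over the 4 libraries of 12.05-fold and 10.4-fold. Ly86, which encodes the partner of a Toll-like receptor homologue, had 49.7 and 17.0 FPKM in Zeb1 cells and 23.5 and 6.705 FPKM in control cells. Aif1, which encodes the cytoskeletal microglial marker IBA1, had 29.9 and 13.2 FPKM in Zeb1 cells and 16.3 and 5.165 FPKM in control cells. The tetraspanin gene Cd53 had 17.7 and 9.07 FPKM in Zeb1 cells and 11.9 and 2.785 FPKM in control cells. In all of these, control replicate 1 exceeded Zeb1 replicate 2.

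The remaining surface genes, Cd86, Cd14 and Selplg, had both Zeb1 libraries above both controls. The costimulatory ligand gene Cd86 had 5.24 and 4.97 FPKM in Zeb1 cells and 3.94 and 1.06 FPKM in control cells. The lipopolysaccharide co-receptor gene Cd14 had 10.35 and 9.04 FPKM in Zeb1 cells and 8.01 and 4.25 FPKM in control cells. Selplg, the P-selectin ligand gene next to Tmem119 on chromosome 5, had 9.73 and 5.05 FPKM in Zeb1 cells and 4.33 and 2.535 FPKM in control cells. Their log2 fold changes were 0.94, 0.64 and 0.89, with limma adjusted p-values of 0.764 for Cd86, 0.764 for Cd14 and 0.755 for Selplg. Cd14 and Selplg also varied little between controls, with ratios of 1.89 and 1.71, where the median of the set was 3.75.

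Lysosomal and endosomal genes numbered 6, and their median log2 difference of 1.58 was the highest of any role group. Of the 6, 0 were called, against 0.0837% of all genes called higher and 0.112% called lower. Ctss, the cysteine protease cathepsin S, had 109 and 51.9 FPKM in Zeb1 cells and 49.7 and 11.55 FPKM in control cells. Laptm5, a lysosomal membrane protein gene of blood cells, had 155 and 118 FPKM in Zeb1 cells and 87.8 and 18.2 FPKM in control cells. Unc93b1, which carries nucleic acid-sensing Toll-like receptors to endosomes, had 38.8 and 24.85 FPKM in Zeb1 cells and 20.0 and 4.58 FPKM in control cells. In these 3 genes both Zeb1 libraries were above both controls, and log2 fold changes were 1.60, 1.72 and 1.57, each with a limma adjusted p of 0.764. Lyz2, the macrophage lysozyme gene, had 42.5 and 16.3 FPKM in Zeb1 cells and 16.2 and 2.78 FPKM in control cells. Its log2 fold change of 1.77 was the largest of the set, SE 0.92 (limma adjusted p = 0.764), and its groups were separated by 1.01-fold. Lyz2 shares 15.4% of its 50-mers with Lyz1, which had at most 0.470 FPKM in any library. The scavenger receptor gene Cd68 had 55.4 and 28.5 FPKM in Zeb1 cells and 32.8 and 11.3 FPKM in control cells. Lgmn, the asparaginyl protease legumain, had 157.7 and 81.0 FPKM in Zeb1 cells and 101.5 and 38.8 FPKM in control cells. For Cd68 and Lgmn the groups overlapped.

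Mrc1, the mannose receptor of border-associated macrophages, had 5.34 and 3.225 FPKM in Zeb1 cells and 3.71 and 0.886 FPKM in control cells. The ratio of Mrc1 to the geometric mean of the 34 genes stayed between 0.1501 and 0.178 in the 4 libraries.

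Apoe, the lipid carrier of glia and macrophages, was the most abundant of the 38, with 1349 and 647.7 FPKM in Zeb1 cells and 517.6 and 160.5 FPKM in control cells. Its log2 fold change was 1.69 (SE 0.72; limma adjusted p = 0.749). Spp1, the matrix phosphoprotein osteopontin, had 30.02 and 19.4 FPKM in Zeb1 cells and 22.2 and 4.995 FPKM in control cells, and 18.8% of its exonic bases lie in an annotated transcript of the same strand, Gm42793. The chemokine genes Ccl3 and Ccl4, which are neighbours on chromosome 11, parted from the rest in Zeb1 replicate 2. Ccl3 had 107.0 and 21.75 FPKM in Zeb1 cells and 62.0 and 18.5 FPKM in control cells, and Ccl4 had 67.9 and 18.7 FPKM in Zeb1 cells and 36.0 and 14.0 FPKM in control cells. Zeb1 replicate 1 was thus 4.92-fold and 3.62-fold above Zeb1 replicate 2 for Ccl3 and Ccl4, against a median of 1.865 over the set. Their log2 fold changes were 0.50 and 0.65, and the 95% interval of Ccl3 ran from -2.31 to 3.31.

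**Figure D3:**
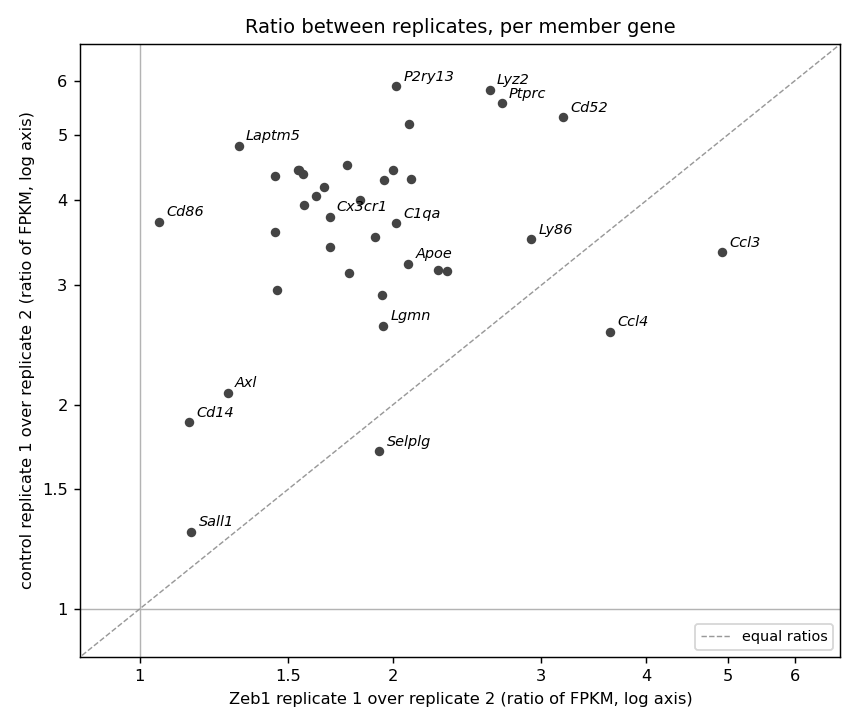
Ratio of FPKM between replicates of the Zeb1 group (horizontal) and of the control group (vertical) for the 38 genes, both on log axes, with a dashed line of equal ratios. All ratios are above 1, most genes lie above the line, Ccl3, Ccl4 and Selplg lie below it at Zeb1 ratios of 4.92, 3.62 and 1.93, and Sall1 lies nearest to 1 on the control axis at 1.30.

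The phagocytic receptor tyrosine kinases Axl and Mertk bind phosphatidylserine on dying cells through bridging ligands. Axl had 37.6 and 29.6 FPKM in Zeb1 cells and 18.8 and 9.02 FPKM in control cells. Both Zeb1 libraries were above both controls, and Zeb1 replicate 2 was 1.57-fold above control replicate 1, the widest gap of the set. The log2 fold change of Axl was 1.29 (SE 0.39), a 95% interval of 0.20 to 2.37 and a limma adjusted p of 0.665. Mertk had 5.84 and 3.29 FPKM in Zeb1 cells and 3.40 and 1.09 FPKM in control cells, with overlapping groups and a log2 fold change of 0.84.

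Divided by the geometric mean of the 34 genes in the same library, a scale chosen after the values were seen, most genes were nearly level. The median range over the 4 libraries was 1.46-fold on this relative scale, against 6.06-fold in FPKM, and 32 of 38 genes stayed within 2-fold. Cx3cr1, for example, had relative levels of 1.30 and 1.48 in Zeb1 cells and 1.38 and 1.38 in control cells, and C1qa had 4.32 and 4.10 in Zeb1 cells and 3.85 and 3.93 in control cells. These 34 genes set the scale, so their own evenness is partly built in. The 6 that exceeded 2-fold were Sall1, Cd14, Selplg, Lyz2, Ccl3 and Ccl4. Sall1 had relative levels of 0.595 and 0.990 in Zeb1 cells, against 0.749 and 2.18 in control cells. Ccl3 had 3.01 and 1.17 in Zeb1 cells, against 2.97 and 3.35 in control cells, so Zeb1 replicate 2 alone was low. Lyz2 had 1.195 and 0.879 in Zeb1 cells, against 0.776 and 0.505 in control cells. Apoe, which is outside the 34, had 37.9 and 34.9 in Zeb1 cells, against 24.8 and 29.1 in control cells, while Mertk, also outside, stayed between 0.163 and 0.197.

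**Figure D4:**
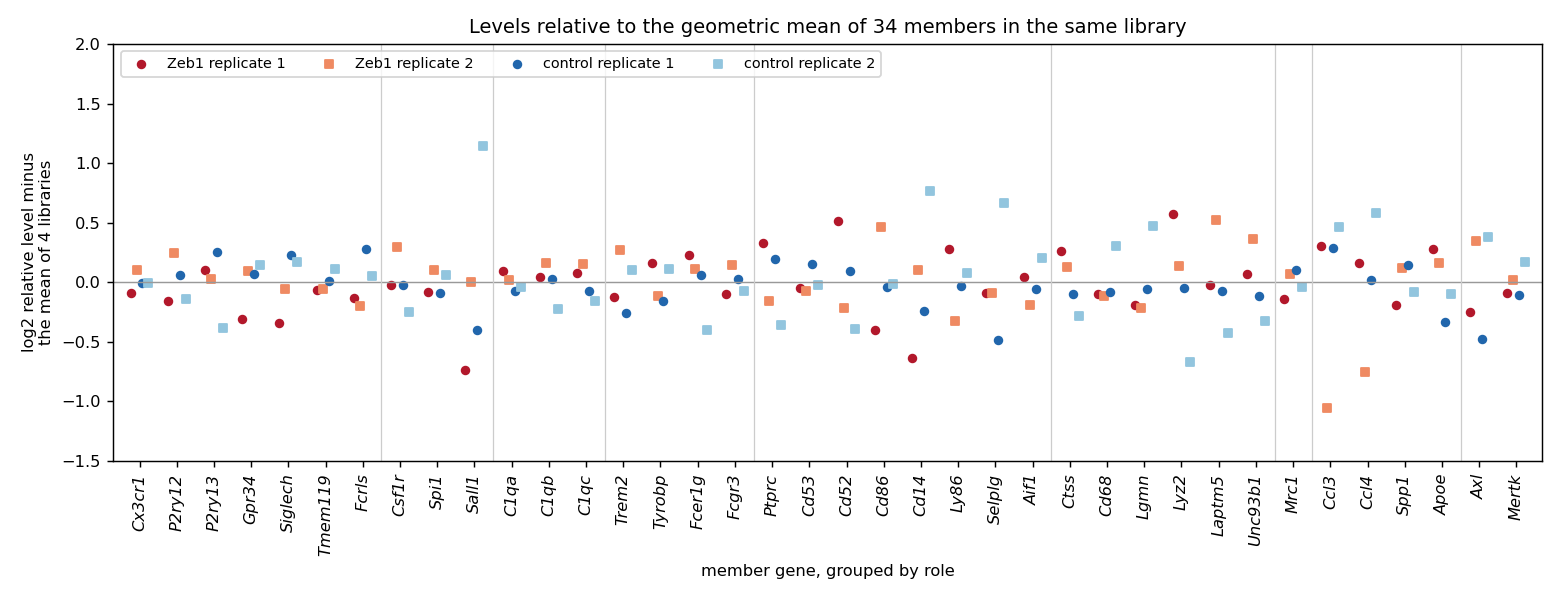
Level of each of the 38 genes relative to the geometric mean of 34 of them in the same library, as log2 minus the mean of the 4 libraries, with 1 point per library. Most points lie close to 0, while Sall1, Cd14 and Selplg are high in control replicate 2 and Ccl3 and Ccl4 are low in Zeb1 replicate 2.

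A wider list of 51 other microglia and macrophage genes held 50 in the table and 49 tested. Of these 49, 44 had Zeb1 replicate 1 highest and control replicate 2 lowest, against 15.8% of all genes tested. Both Zeb1 libraries were above both controls for 23, against 18.2% of all genes tested. By limma over all genes, 0 were called. Unadjusted p-values under 0.05 were held by 6 of the 49 that were higher, against 3.23% of all genes, and by 0 that were lower, against 3.68%. The median log2 fold change was 1.11. Itgam, the integrin CD11b, had 39.8 and 13.85 FPKM in Zeb1 cells and 15.7 and 1.79 FPKM in control cells at its shorter locus, while the longer locus of that symbol stayed under 1 FPKM and was not tested. Cd33 and Entpd1 were among the genes with the smallest p-values. The sialic acid receptor gene Cd33 had 10.3 and 9.79 FPKM in Zeb1 cells and 4.71 and 3.08 FPKM in control cells, a log2 fold change of 1.19 (limma adjusted p = 0.469). The ectonucleotidase gene Entpd1 had a log2 fold change of 1.31 (limma adjusted p = 0.672). Coro1a, a coronin also abundant in neurons, was nearly level, with 41.75 and 35.6 FPKM in Zeb1 cells and 43.6 and 31.1 FPKM in control cells.

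Other cytokine and chemokine genes also differed between the Zeb1 libraries. Of 12 listed, 11 were tested and 0 were called by limma. At an unadjusted limma p under 0.05 there were 0, against 3.23% of all genes higher and 3.68% lower. The median log2 fold change of the 11 was 0.56. Their median ratio of Zeb1 replicate 1 to Zeb1 replicate 2 was 3.08, against 1.73 for the 49 other microglia and macrophage genes. Cxcl2, a neutrophil chemoattractant gene, had 22.5 and 0.978 FPKM in Zeb1 cells and 9.70 and 1.77 FPKM in control cells. Ccl2, a monocyte chemoattractant gene, had 18.7 and 2.46 FPKM in Zeb1 cells and 7.35 and 1.89 FPKM in control cells, and Tnf had 9.43 and 2.20 FPKM in Zeb1 cells and 6.11 and 1.20 FPKM in control cells. These were high in replicate 1 of both groups and low in replicate 2 of both. The tested members with the smallest p were Ccl6, Cxcl16 and Ccl9, with log2 fold changes of 1.25, 0.67 and 0.87.

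Ligands and partners of microglia had log2 fold changes of both signs. Of 11 listed, 10 were tested and 0 were called by limma. At an unadjusted limma p under 0.05, Tgfb3 alone was higher, against 3.23% of all genes, and Cd200 alone was lower, against 3.68%. Csf1, a ligand of CSF1R, had 31.8 and 23.1 FPKM in Zeb1 cells and 28.1 and 16.1 FPKM in control cells, while its other ligand gene Il34 was at most 0.317 FPKM. Cd200, which encodes a neuronal surface ligand that restrains microglia, had 22.3 and 27.2 FPKM in Zeb1 cells and 45.3 and 65.5 FPKM in control cells, a log2 fold change of -1.11 (SE 0.24; limma adjusted p = 0.56). Both Zeb1 libraries were above both controls for 4 of the 10, Tgfb3 among them, against 18.2% of all genes. Both Zeb1 libraries were below both controls for Cd200 and for Cd47, the signal against phagocytosis, whose log2 fold change was -0.46 (limma adjusted p = 0.725), against 19.5% of all genes. The growth factor gene Tgfb3 had 4.11 and 3.80 FPKM in Zeb1 cells and 2.05 and 2.14 FPKM in control cells (limma adjusted p = 0.6215). The bridging ligand genes of Axl and Mertk, Gas6 and Pros1, had log2 fold changes of 0.80 and 1.01, and Sirpa, the receptor of CD47, had 1.01.

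Levels of border-associated macrophage genes ran from near 0 to 110 FPKM, and monocyte, neutrophil and lymphoid genes were low. Of 10 border-associated macrophage genes, Mrc1 included, 6 were tested and 0 were called. At an unadjusted limma p under 0.05 there were 0, against 3.23% of all genes higher and 3.68% lower. Ms4a7, a membrane protein gene of such macrophages, had 17.05 and 4.65 FPKM in Zeb1 cells and 5.16 and 1.15 FPKM in control cells, F13a1 a log2 fold change of 0.57, and Stab1, a scavenger receptor gene, 110 and 21.8 FPKM in Zeb1 cells and 46.7 and 8.34 FPKM in control cells. Of the 6 tested, 5 had positive log2 fold changes. Pf4 went the other way, with 3.885 and 1.475 FPKM in Zeb1 cells and 4.57 and 2.52 FPKM in control cells. Its log2 fold change was -0.35. Folr2 had 3.53 and 0.879 FPKM in Zeb1 cells and 1.12 and 0.681 FPKM in control cells. Lyve1, Cd163 and Cd209f were at most 0.278 FPKM and Cbr2 at most 0.871 FPKM, below the level for testing. The 10 monocyte and neutrophil genes summed to 4.01 and 3.03 FPKM in Zeb1 cells and 3.01 and 0.523 FPKM in control cells, with Elane, Ly6g and Chil3 at 0 throughout. Within them, Ccr2, the monocyte chemokine receptor gene, had 1.075 and 0.715 FPKM in Zeb1 cells and 0.0709 and 0.0744 FPKM in control cells, below the level for testing, and Plac8, the only gene of the list tested, had a log2 fold change of 1.14 (limma adjusted p = 0.6215). The 10 lymphoid genes summed to 3.72 and 2.32 FPKM in Zeb1 cells and 0.93 and 0.454 FPKM in control cells, with Cd3d, Cd3e, Cd3g and Nkg7 at 0, and Cd79b alone was tested (log2 fold change 1.18, limma adjusted p = 0.6915). Plac8 and Cd79b each had an unadjusted p under 0.05 (0.024 for Plac8 and 0.0349 for Cd79b in limma) and both Zeb1 libraries above both controls. Over all genes tested, 3.23% were higher at that p and 18.2% had both Zeb1 libraries above both controls. The part of such cells in the values of the set was not tested.

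Non-myeloid markers had ratios between controls nearer to 1. The median ratio of control replicate 1 to control replicate 2 was 3.75 over the 38 genes, and it was 1.07 for 4 erythroid genes, 1.27 for 3 endothelial genes, 1.045 for 4 pericyte and mural genes, 0.9345 for 10 radial glia genes, 0.918 for 10 proliferation genes and 0.980 for 9 cortical neuron genes. Within the Zeb1 group the ratio of replicate 1 to replicate 2 was 1.865 over the set, 2.745 for erythroid genes and between 1.02 and 1.405 for the other 5 lists. Erythroid genes summed to 139 and 51.6 FPKM in Zeb1 cells and 64.8 and 55.9 FPKM in control cells, endothelial genes to 12.02 and 8.32 FPKM in Zeb1 cells and 7.51 and 7.46 FPKM in control cells, and mural genes to 20.0 and 7.88 FPKM in Zeb1 cells and 10.4 and 9.47 FPKM in control cells. The 10 meningeal fibroblast genes summed to at most 3.465 FPKM and 0 were tested. The part of these cells in the values of the set was not tested. In these 6 tested lists 0 genes were called. At an unadjusted limma p under 0.05, 1 was higher, against 3.23% of all genes, and 1 was lower, against 3.68%. The higher was Vim, a radial glia filament gene, with a log2 fold change of 0.75. The lower was Tbr1, a deep-layer neuron factor gene, with -0.75.

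**Figure D5:**
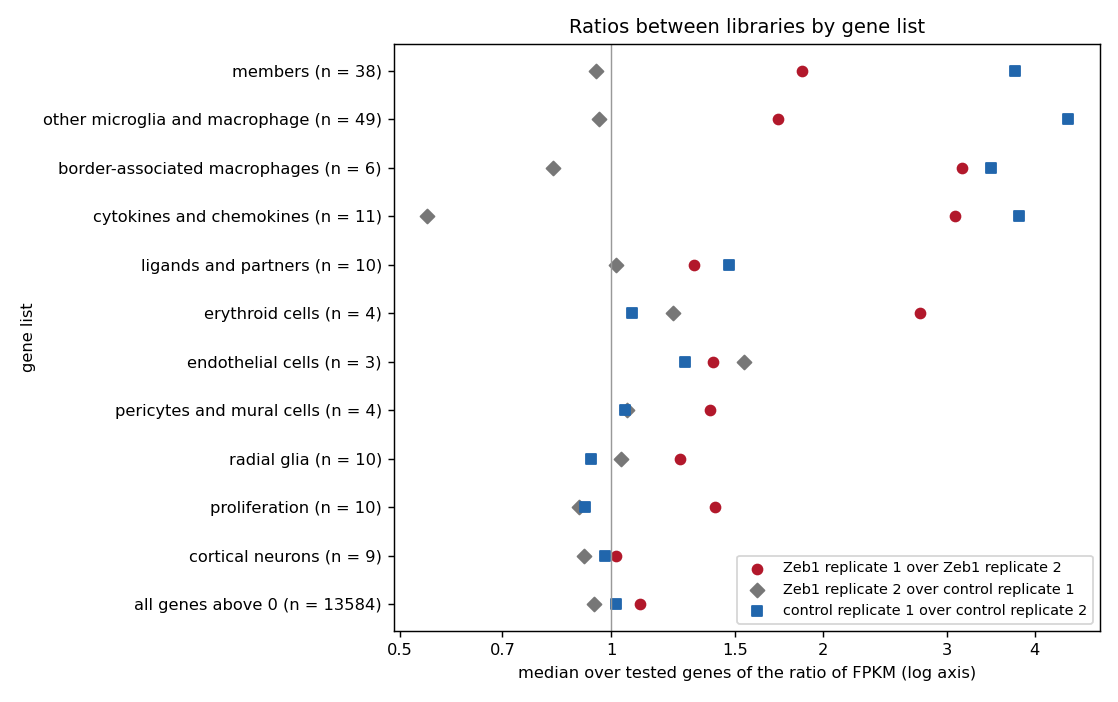
Median ratio of FPKM between pairs of libraries (log axis) for each gene list, over tested genes above 0 in every library, with n in brackets. Control replicate 1 over replicate 2 is 3.75 for the members and 4.46 for other microglia and macrophage genes, and near 1 for neurons, radial glia and all genes, while Zeb1 replicate 2 over control replicate 1 is near 1 for the members.

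Zeb1 itself checked the labels, with 5622 and 6227 FPKM in Zeb1 cells and 35.2 and 18.6 FPKM in control cells. Between 13647 and 13997 genes per library reached 1 FPKM. The FPKM of a library summed to between 570470 and 623499, and size factors over expressed genes lay between 0.96 and 1.05.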

How the data were processed

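RNA of 4 sorted-cell libraries was sequenced on a BGISEQ-500 instrument, per the labels. The authors deposited FPKM per gene and library; the tools named are STAR, Cufflinks and DESeq2, and the build GRCm38, per the submitters' processing notes, and versions, roles and annotation are not given in the sources used here. Of its lines, 48395 held genes and 1 was emptied, and 27 names turned into dates were restored from gene identifiers. For a repeated symbol the longest locus was taken, and 1 was added to starts, which then matched GENCODE M21 for 43395 genes. FPKM carry no read counts, so no count model, counting interval or detection floor was computed.

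Groups were compared with limma 3.58.1 in R 4.3.3 on log2(FPKM + 1) over the 14330 genes averaging 1 FPKM or more, two-sided, with an intensity trend and Benjamini-Hochberg adjustment over all of them at 0.05. Fold changes are Zeb1 minus control and understate the change of low genes. Steps were tested on simulated data. With 2 libraries per group the smallest exact permutation p is 0.333, so no such test is given. The members and lists were chosen with earlier results of these data known. Statistics were printed for up to 12 members and 3 genes of each other list with the smallest p. Fold changes of further members are given for description. Genes outside this rule were named after their values were seen. They were Itgam, Coro1a, Cxcl2, Ccl2, Tnf, Csf1, Il34, Gas6, Pros1, Sirpa, Stab1, Pf4, Folr2, Cbr2, Ccr2, and genes at or near 0. Shared 50-mers and exon overlaps came from GENCODE M21 with Python 3.11.15, and figures from matplotlib 3.10.9. Irf8, Cyba and Tubb3 are not analysed here. A result that the naming rule selected from another list is not reported here. Alternatives were other pseudocounts, filters, scalings, moderation, protein-coding genes alone, a replicate block and leaving out each library.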

Additional observations from a re-analysis of the deposited data

How the results depend on the processing

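Every alternative kept 0 genes of the set called in either direction, and the median log2 fold change of its tested genes stayed positive, between 1.09 and 1.27 under the 11 alternatives that keep all libraries and between 0.30 and 1.97 with a library left out. A mean of at least 5 FPKM tested 32 of the 38. The count of all genes called depended more on the setting. Against 12 higher and 16 lower, it was 1 and 0 without a filter, 3 and 0 over protein-coding genes alone, and 5 and 6 with a replicate block, while robust moderation called 20 higher and a mean of at least 5 FPKM called 10 lower. With a library left out it was 0 in both directions, at 323 to 791 genes higher and 334 to 582 lower at an unadjusted limma p under 0.05; such a fit takes the spread of the single remaining library from the other group. The lowest limma adjusted p among the set ran from 0.347 over protein-coding genes alone to 0.974 without control replicate 2. Under the replicate block 29 of the 38 had an unadjusted p under 0.05, each of them higher in Zeb1 cells, where 766 of all 14330 genes did so and 512 did so in the lower direction, and 0 of the 38 passed the adjustment. Samples with the same number are not said to be paired, and over 14330 genes the differences between replicates correlated at 0.0833 between groups. Within the set, replicate 1 was above replicate 2 in both groups for all 38 genes. Each Zeb1 library was also above the control of the same number for all 38. The median ratios were 1.72 for replicate 1 and 3.57 for replicate 2, against 1.04 and 0.962 over 13584 genes above 0 in every library. Both orders follow from Zeb1 replicate 1 being highest and control replicate 2 lowest. Signs turned for Esam (-0.02) and Pdgfrb (0) under quantile normalization, and with a library left out Esam ran from -0.08 to 0.30, Pdgfrb from -0.01 to 0.26 and Hbb-bt from -0.17 to 1.30. The cause was not tested. With 2 libraries a group and unknown depth, the spread between the controls limits what this set can show.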
